A study of Mus musculus with 35 samples.

Results

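Repeated dosing with ActRIIB-Fc was compared with a single dose in mouse quadriceps muscle. The arrays titled as 4 doses, 3 in a first experiment and 5 in a second, were set against the arrays titled as 1 dose, again 3 and 5, which made 16 of the 35 arrays of the series. ActRIIB-Fc joins the ligand-binding end of activin receptor type IIB to the Fc part of an antibody. Given to an animal, it acts as a decoy. All mice were females aged 2 months, and the labels name the arrays of a group as biological replicates. The 8 control mice, 3 and 5 in the same experiments, gave the level each dose was measured from. The labels name no injection for the controls. The amount of a dose, the interval between doses, the time from the last dose to dissection and the strain are not given in the sources used here, so the number of doses and the time since the first or last dose cannot be told apart. The remaining 11 arrays, 3 and 8 from mstn-null mice, which lack myostatin, only helped to estimate the spread.

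The activin type IIB receptor is bound by myostatin and by activins, secreted factors that hold back muscle growth through SMAD transcription factors. A decoy that takes up these ligands enlarges skeletal muscle. In muscle fibres, protein breakdown runs in part through muscle-specific ubiquitin ligases, and the nuclei of fibres do not divide, so transcripts of dividing cells in whole muscle come from other nuclei such as those of satellite cells, fibroblast-like cells and immune cells.

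Values are log2 expression values, so a difference of 1 is a 2-fold change. Array medians ran from 4.39 to 4.52 in experiment 1 but from 6.06 to 6.27 in the second, and levels are therefore compared only within an experiment. Arrays of a group correlated between 0.954 and 0.996 across genes, and no pair was identical. All 16 fast fibre contractile genes were among the brightest genes, the top 10% of the table, on every array. In each experiment the third replicate of the 4-dose group had the narrowest spread of values, with interquartile ranges of 2.22 and 2.26 against 2.37 to 2.70 on the other arrays of both dose groups. Where a gene lost its call between the doses without both of these arrays, this is stated beside it. Mstn, the gene of myostatin, differed by 0.02 between 4 doses and 1 dose, with a 95% interval from -0.49 to 0.53.

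With 4 doses, 64 of 19938 genes differed from 1 dose at an adjusted p under 0.05 (limma, Benjamini-Hochberg over all genes), which is 0.321% of those tested. Of these, 55 rose (0.276%) and 9 fell (0.0451%). After 1 dose 222 genes differed from control (1.11%), 108 of them higher (0.542%) and 114 lower (0.572%). After 4 doses 626 did (3.14%), 380 higher (1.91%) and 246 lower (1.23%). The 3 comparisons share arrays, so their values are set side by side and their overlap is not a result. The 62 of the 64 genes that are named here all had the same sign in both experiments. For 34 of the 64, the 4-dose and 1-dose arrays did not overlap in either experiment and lay apart in the same direction, which held for 89 of all 19938 genes (0.446%). The 64 were called from both experiments together, which by itself favours a shared sign and arrays lying apart. In experiment 1 alone 10 of the 64 were called, and in experiment 2 alone 30. Of the 64 genes, 24 kept their call without each of the 24 dose and control arrays in turn, and all 24 had risen. The other 40, all 9 that fell among them, lost it without at least 1 array, and 38 of these lost it without replicate 3 of the 1-dose group of experiment 1, where 27 genes were called in all. Without both narrow-range 4-dose arrays 88 genes differed between the doses, 82 of them higher, and 51 of the 64 were among them.

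From the 3 comparisons the genes were sorted into responses. A gene was called built up when 4 doses differed from both 1 dose and control in the same direction, kept when both doses differed from control in the same direction and not from each other, and receded when the change after 1 dose was called and 4 doses had moved back. Built up held 53 genes, 50 of them higher and 3 lower. Kept held 111 genes, 44 higher and 67 lower than control. Receded held 5 genes. The 50 higher genes of the built-up response had a median difference from control of 0.07 after 1 dose and of 0.60 after 4 doses, values that the definition itself shapes. A further 105 genes were called after 1 dose only and 462 after 4 doses only, with no call between the doses, so those cannot be placed. Without replicate 3 of the 1-dose group of experiment 1, built up held 26 genes.

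**Figure D1:**
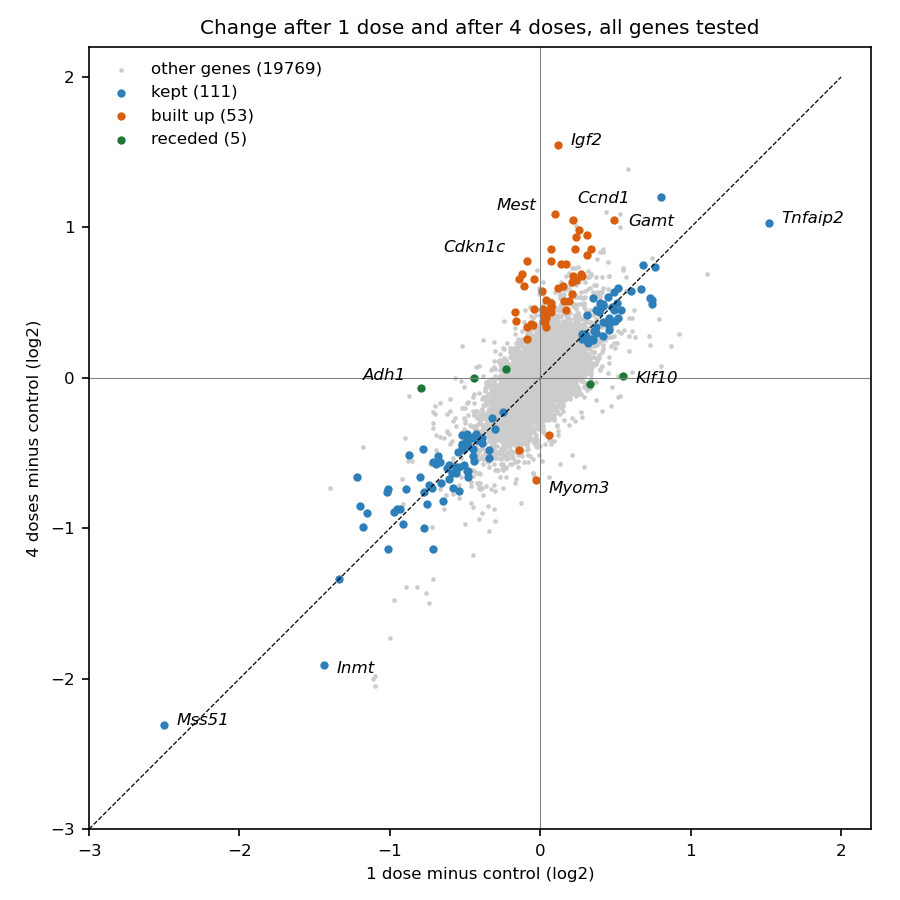
Each point is a gene, with its log2 difference from control after 1 dose on the horizontal axis and after 4 doses on the vertical axis. Both axes use the same control arrays, which by itself pulls points along the dashed line of equal change. Igf2 and Mest stand high on the vertical axis near 0 on the horizontal axis, Mss51 lies near the dashed line at the lower left, and Adh1 and Klf10 lie near 0 on the vertical axis.

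Igf2, the gene of the fetal growth factor IGF-II, showed the largest rise with repeated dosing. In experiment 1 its log2 value was 6.27, 6.45 and 5.91 in controls, 6.16, 6.47 and 6.24 after 1 dose, and 7.43, 7.30 and 7.75 after 4 doses. In experiment 2 it was 7.82, 7.86, 7.99, 7.72 and 7.73 in controls, 8.11, 7.84, 7.93, 7.88 and 8.05 after 1 dose, and 9.39, 9.75, 9.80, 9.23 and 9.53 after 4 doses. The 1-dose arrays lay among or just above the controls, and every 4-dose array lay above every array of the other groups of its experiment. The 4-dose level was 2.71-fold the 1-dose level (log2 difference 1.44 ± 0.10 SE, adjusted p = 3.36e-12), while 1 dose differed from control by 0.12 (adjusted p = 0.67).

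Mest and Cdkn1c followed the same course. All 3 genes are imprinted, that is, transcribed from a single parental copy, and belong to a group of genes active in fetal growth. Mest encodes a membrane protein of the hydrolase fold that is abundant in embryonic mesoderm. In experiment 2 Mest was between 5.47 and 6.03 in controls and between 5.63 and 6.08 after 1 dose, and 7.14, 6.89, 6.76, 7.21 and 7.42 after 4 doses. In experiment 1 it was 4.06, 4.09 and 3.91 after 1 dose and 4.64, 5.16 and 4.27 after 4 doses, so the groups lay apart in both. The difference was 0.98 ± 0.11 SE (adjusted p = 1.79e-06). Cdkn1c encodes an inhibitor of cyclin-dependent kinases. It measured 6.26, 6.32 and 6.15 after 1 dose and 7.25, 7.10 and 7.10 after 4 doses in experiment 1. The values of experiment 2 were 8.08, 8.15, 8.05, 8.26 and 7.97 after 1 dose and 9.05, 9.05, 8.82, 8.87 and 8.93 after 4 doses. Its values hardly spread within a group, and the 4-dose arrays lay above all others (0.87 ± 0.07 SE, adjusted p = 6.52e-10), with 1 dose at -0.09 from control (adjusted p = 0.669).

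Of 17 measured genes of the imprinted growth network, these 3 rose, none fell and 14 were not called (over all genes tested, 0.276% rose). The median difference of the list was 0.06, against -0.01 over all genes. Grb10, which encodes an adaptor protein that damps insulin and IGF signalling, was the fourth to differ from control after 4 doses, but it had already done so after 1 dose (0.42, adjusted p = 0.000275, and 0.48, adjusted p = 2.06e-05, after 4). Its difference between the doses was 0.06, with a 95% interval from -0.08 to 0.20. Dlk1 differed by 0.06, Plagl1 by 0.04, Peg3 by -0.08 and Zim1 by 0.30 between the doses, none of them called.

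**Figure D2:**
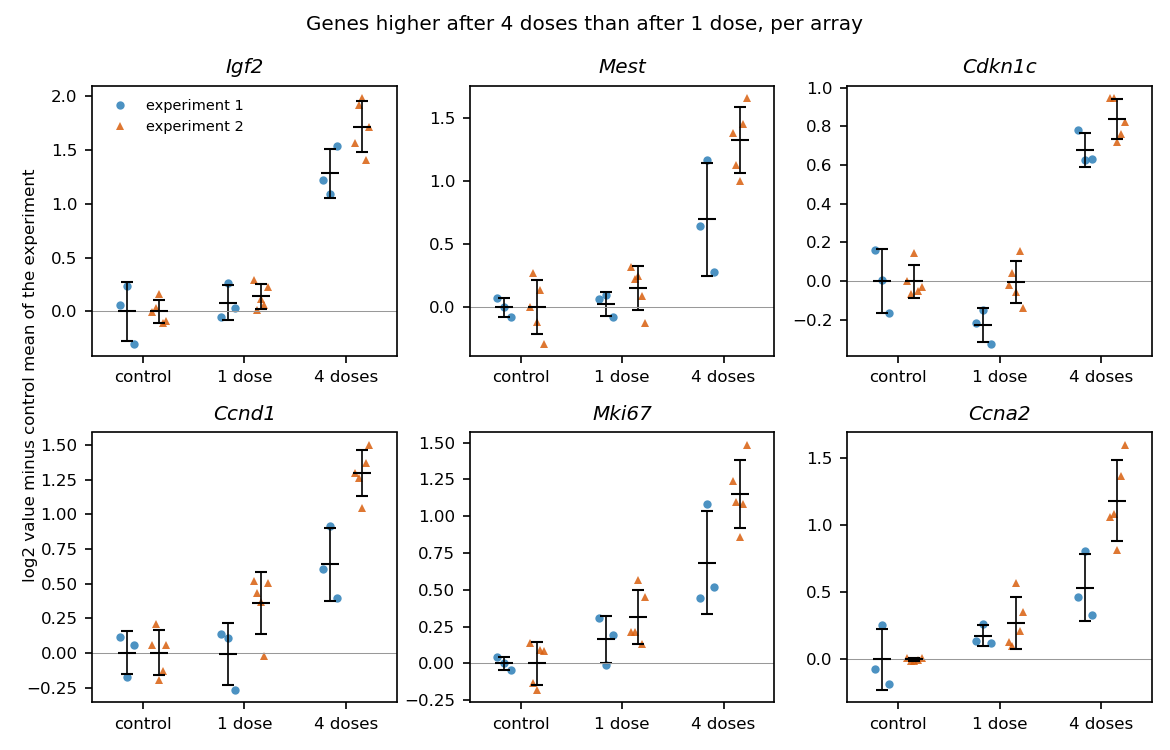
Log2 values of 6 genes on each array, minus the control mean of the same experiment, by group. Circles are experiment 1 and triangles experiment 2, and black bars give the mean and SD. In all 6 genes the 4-dose arrays lie above the 1-dose arrays of their experiment, and for Igf2, Mest and Cdkn1c the 1-dose means stay near the control mean.

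Part of the cell division genes rose with 4 doses. Over 3 lists, for cyclins and regulators, DNA replication, and mitosis, 13 of 95 measured genes rose over 1 dose, none fell and 82 were not called (over all genes tested, 0.276% rose). The 13 include Cdkn1c, the gene of a cyclin-dependent kinase inhibitor already counted among the imprinted genes. After 1 dose none of the 95 differed from control, and after 4 doses 32 were higher (over all genes, 1.91% were). The median difference between the doses was 0.14 over the 95 genes, 77 of which were positive, against -0.01 over all genes. By list, 4 of 22 cyclins and regulators rose, 1 of 27 DNA replication genes, and 8 of 46 mitosis genes, where 45 of the 46 differences were positive and the median was 0.22. Of the 13, 8 kept their call without each array in turn. The mitosis count ranged from 3 to 11 as single arrays were left out, and it was 3 without replicate 3 of the 1-dose group of experiment 1, without replicate 1 or 4 of the 4-dose group of experiment 2, or without replicate 4 or 5 of its 1-dose group. It was 0 when genes below the median level in either experiment were left out, because these genes are dim in muscle and most were then not tested.

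The gene of cyclin D1, Ccnd1, which drives entry into the cell cycle, was 5.59, 5.55 and 5.18 after 1 dose and 6.06, 6.37 and 5.84 after 4 doses in experiment 1. Experiment 2 gave 6.91, 6.82, 6.76, 6.37 and 6.90 after 1 dose, above most controls, which lay between 6.20 and 6.60. After 4 doses it was 7.69, 7.65, 7.44, 7.76 and 7.89, clear of both other groups (difference from 1 dose 0.83 ± 0.11 SE, adjusted p = 1.24e-05). The difference of 1 dose from control was 0.22 and not called (adjusted p = 0.408). Mki67, which encodes the proliferation marker Ki-67, ran from 5.13 to 5.57 after 1 dose and from 5.86 to 6.48 after 4 doses in experiment 2. The ranges in experiment 1 were 3.61 to 3.93 and 4.07 to 4.71, so both experiments kept the groups apart. The difference was 0.72 ± 0.09 SE (adjusted p = 1.24e-05). Ccna2, the gene of cyclin A2 of DNA synthesis and mitotic entry, rose by 0.70 ± 0.10 SE (adjusted p = 0.000191), and Top2a, the topoisomerase that untangles replicated DNA, by 0.64 ± 0.11 SE (adjusted p = 0.00167). A second, dimmer probe row of Top2a gave 0.28 and was not called (adjusted p = 0.372).

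Among the mitosis genes, Kif11, the motor that pushes spindle poles apart, rose most, by 0.57 ± 0.10 SE (adjusted p = 0.00167). Its 4-dose arrays lay between 4.82 and 5.61 in experiment 2 and its 1-dose arrays between 4.39 and 4.73. Tpx2, a spindle assembly factor, rose by 0.42, Ckap2 by 0.40 (call lost without both narrow-range arrays), and Nuf2, a kinetochore protein, by 0.39. Ect2 and Kif23, which both act in the final separation of daughter cells, rose by 0.35 and 0.32. Bub1b, of the spindle checkpoint, rose by 0.33, and Ncapg, a condensin subunit, by 0.28. The largest adjusted p among these was 0.0427, that of Ect2. Kif11, Kif23 and Bub1b kept their call without each array in turn. Ect2 lost it without any 1 of 16 arrays, Tpx2 of 12, Ckap2 of 11, Nuf2 of 10 and Ncapg of 9. Outside the lists, the linker histone genes H1f3 and H1f5 rose by 0.43 and 0.51 and Atad2, a chromatin factor, by 0.36. H1f3 kept its call without each array, while H1f5 lost it without any 1 of 13 and Atad2 without any 1 of 8. The DNA replication genes Fen1, Uhrf1 and Mcm3 differed by -0.28, 0.21 and 0.16, none of them called. Of the 13 cell cycle genes 12 had the larger difference in experiment 2, as did 43 of the 62 called genes named here. Within experiment 2 alone 11 of the 13 were called, and within experiment 1 alone 2 were, Ccnd1 and Cdkn1c. Of all 64 called genes, 30 were called within experiment 2 alone and 10 within experiment 1 alone. Over all 19938 genes, 47 and 86 were. In 8 of the 13 the dose groups lay apart in both experiments, as they did in 34 of all 64 called genes (53.1%). In whole muscle, more dividing cells and more of these transcripts per cell cannot be told apart.

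The promoters of these genes are shown because genes of mitosis are commonly controlled through CCAAT boxes and an element named CHR. RefSeq promoter sequences of assembly GRCm38.p6 were at hand for 9 of the 13 genes. They were searched in the 250 bases before the start for CCAAT, for CHR as TTTGAA or TTCGAA, and for E2F sites as TTTCCCGC or TTTGGCGC, on both strands. The 4 printed here, written 5′ to 3′ along the gene's strand with CCAAT boxes and CHR elements in capitals, are those of Mki67 (chr7:135716380-135716629, minus strand), Top2a (chr11:99024190-99024439, minus strand), Kif11 (chr19:37376132-37376381, plus strand) and Bub1b (chr2:118597961-118598210, plus strand).
Mki67: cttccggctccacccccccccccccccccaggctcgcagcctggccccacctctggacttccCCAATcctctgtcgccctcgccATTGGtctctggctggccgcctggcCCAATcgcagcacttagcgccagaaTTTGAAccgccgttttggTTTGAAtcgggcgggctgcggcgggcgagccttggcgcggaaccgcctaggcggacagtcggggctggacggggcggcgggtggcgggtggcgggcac
Top2a: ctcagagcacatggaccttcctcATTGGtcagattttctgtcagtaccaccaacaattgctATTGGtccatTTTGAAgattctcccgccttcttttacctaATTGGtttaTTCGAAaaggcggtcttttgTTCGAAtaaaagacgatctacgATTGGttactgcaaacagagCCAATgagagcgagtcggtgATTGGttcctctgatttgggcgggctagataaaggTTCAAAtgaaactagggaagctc
Kif11: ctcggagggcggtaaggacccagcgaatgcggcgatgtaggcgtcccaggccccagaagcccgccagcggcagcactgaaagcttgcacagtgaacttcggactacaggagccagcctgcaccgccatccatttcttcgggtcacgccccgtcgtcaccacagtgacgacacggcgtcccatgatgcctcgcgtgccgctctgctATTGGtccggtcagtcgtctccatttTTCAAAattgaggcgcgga
Bub1b: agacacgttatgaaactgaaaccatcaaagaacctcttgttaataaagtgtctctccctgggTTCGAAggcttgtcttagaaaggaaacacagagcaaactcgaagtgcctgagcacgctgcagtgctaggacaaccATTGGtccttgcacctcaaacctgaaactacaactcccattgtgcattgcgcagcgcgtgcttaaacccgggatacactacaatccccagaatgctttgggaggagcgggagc
A CCAAT box was found in 8 of the 9 genes and in 33.8% of all 32851 promoters of the table. A CHR was found in 7 of the 9 and in 17.1% of all, and the E2F letters in 0 of the 9 and in 1.3% of all. The CHR of Kif11 begins 19 bases before the start and its CCAAT box 45 bases before. Top2a holds 6 CCAAT boxes and 4 CHR elements, and Mki67 holds 3 and 2. Overlapping matches of different motifs were counted separately, and for a gene with several promoters in the table only the first listed was counted. These matches are descriptions of the letters, not measured binding.

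**Figure D3:**
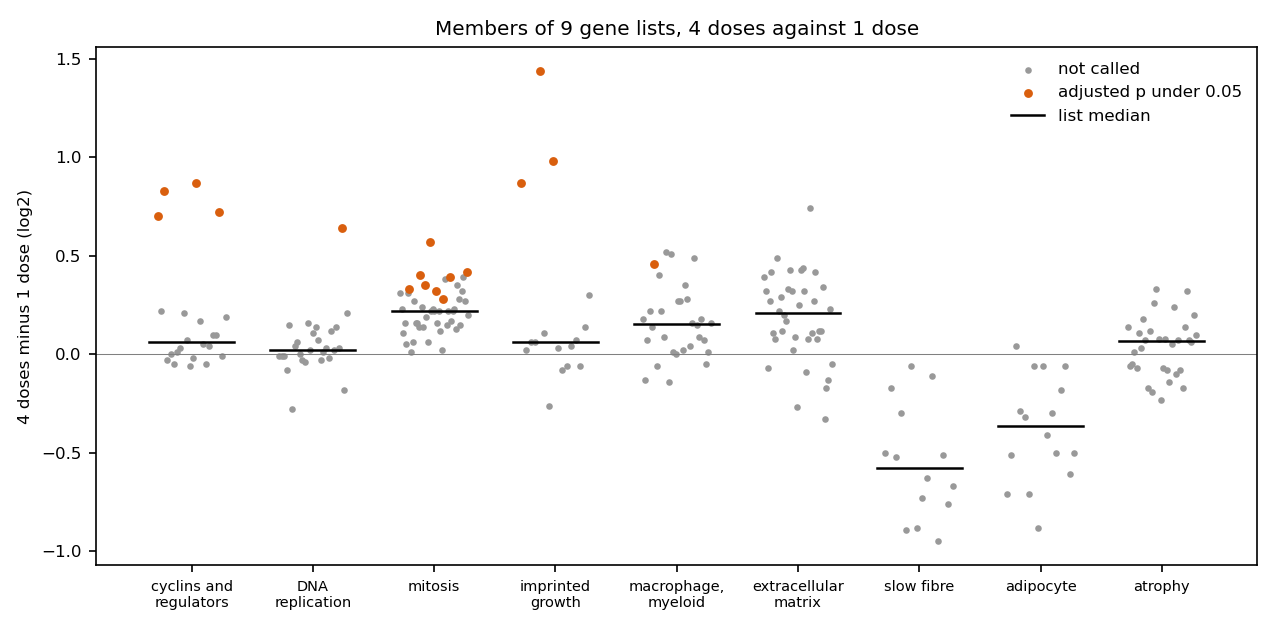
Each point is the log2 difference of 4 doses minus 1 dose for a measured member of 9 gene lists, orange where the adjusted p was under 0.05, and black lines are list medians. Nearly all mitosis genes lie above 0 while few pass the threshold, and all slow fibre genes lie below 0 with none passing it.

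Several transcripts of immune, progenitor and vessel-associated cells were higher with 4 doses, but most did not outlast the loss of single arrays. H2-Aa, a subunit of the class II antigen-presenting complex, was 5.54, 5.68 and 5.17 after 1 dose and 6.25, 6.44 and 5.79 after 4 doses in experiment 1. Experiment 2 gave values between 7.50 and 8.30 after 1 dose and between 8.54 and 9.07 after 4 doses (difference 0.79 ± 0.16 SE, adjusted p = 0.0163). It lost its call without replicate 3 of the 1-dose group of experiment 1 and without replicate 4 of the 4-dose group of experiment 2. The other class II genes H2-Ab1 and Cd74 differed by 0.61 and 0.55 and H2-Eb1 by 0.39, not called. In all, 1 of 6 class II genes rose (over all genes, 0.276% did), with a list median of 0.47.

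Of 30 macrophage and myeloid markers 1 rose (over all genes, 0.276% did). This was Ccr2, a chemokine receptor of inflammatory monocytes (0.46 ± 0.10 SE, adjusted p = 0.0293), and it lost the call without any 1 of 6 arrays. The markers Mpeg1 and Ctss differed by 0.49 and 0.52, not called, and 26 of the 30 differences were positive, with a median of 0.15. Against control 14 of the 30 were higher after 4 doses (over all genes, 1.91% were) and none after 1 dose (0.542%). Leaving out single arrays gave 9 to 18 in place of 14, with 9 without control replicate 3 of experiment 2. The mean log2 level of the 30 markers in experiment 2 lay between 6.05 and 6.29 in controls, between 6.22 and 6.74 after 1 dose and between 6.65 and 6.84 after 4 doses, so the 1-dose arrays overlapped both other groups. In experiment 1 the ranges overlapped, at 4.28 to 4.65 after 1 dose and 4.51 to 4.68 after 4 doses. Cxcl13, a chemokine that draws B cells, rose by 0.70 ± 0.16 SE (adjusted p = 0.0422), by 0.19 in experiment 1 and 1.01 in experiment 2. Among 14 lymphocyte markers none was called (over all genes, 0.321% were).

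Cd93, a receptor of endothelial and myeloid cells, rose by 0.78 ± 0.16 SE (adjusted p = 0.0145). It kept its call without each array. Its 4-dose arrays in experiment 2 lay between 8.72 and 9.29, above all 1-dose arrays, and in experiment 1 the groups overlapped. Of 20 endothelial markers none was called (over all genes, 0.321% were). Cd34, shared by vessel cells and fibro-adipogenic progenitors, rose by 0.53 ± 0.11 SE (adjusted p = 0.0163) and lost the call without the same arrays as H2-Aa. It was the only called marker of 13 on the progenitor list (over all genes, 0.321% were called). The part of such cells in the cell cycle result was not tested.

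Calls among matrix and muscle-building transcripts were few. The basement membrane gene Nid2 rose by 0.46 ± 0.09 SE (adjusted p = 0.0131), and Pxdn, which crosslinks collagen IV, by 0.62 ± 0.12 SE (adjusted p = 0.0108). Both lay apart from 1 dose in each experiment and kept their call without each array. None of the 39 genes of the extracellular matrix list was called between the doses (over all genes, 0.321% were). Of the 39, 10 were higher than control after 4 doses (over all genes, 1.91% were) and none after 1 dose (0.542%). Their median difference between the doses was 0.20, with 32 positive. Lama2, Col6a2, Lamb1 and Col15a1 differed by 0.43, 0.43, 0.44 and 0.42, the smallest adjusted p being 0.0582.

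Mymk, which encodes the fusogen myomaker of myoblasts, rose by 0.41 ± 0.09 SE (adjusted p = 0.0196). It was 5.09, 5.02 and 4.90 after 1 dose and 5.18, 5.33 and 5.61 after 4 doses in experiment 1, and between 6.38 and 6.76 against between 6.92 and 7.20 in experiment 2. The groups lay apart in both experiments, though the call was lost without any 1 of 4 arrays and without both narrow-range arrays. Together with Cxcr4 (0.49), a chemokine receptor of migrating progenitors, it was 1 of 2 called among 25 satellite cell and myogenic genes. Over all genes, 0.321% were called. Actc1, the cardiac actin gene that skeletal muscle uses during development, rose by 0.40 ± 0.08 SE (adjusted p = 0.0126). Experiment 2 gave a range from 13.49 to 13.99 after 1 dose and from 14.16 to 14.25 after 4 doses. Actc1 was the only called gene among 12 developmental sarcomere genes (over all genes, 0.321% were called).

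Several further genes that rose kept their call without each array in turn. Ctnna3, an alpha-catenin of cell junctions, rose by 0.71 ± 0.11 SE (adjusted p = 0.000604) and lay apart in both experiments, with 1-dose arrays between 5.62 and 5.77 and 4-dose arrays between 6.33 and 6.86 in experiment 1. Itm2a, a membrane protein of differentiating muscle and cartilage, rose by 0.64, Capn6, a calpain without protease activity, by 0.47, and Fndc3c1 by 0.48. Lgals1, the lectin galectin-1, and Kit, the receptor of stem cell factor, both rose by 0.42, and Prcp, a carboxypeptidase, by 0.50. The largest adjusted p of these 7 genes was 0.00735.

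Gamt, which makes creatine from guanidinoacetate, was the only built-up gene already called after 1 dose, and was singled out after its values were seen. In experiment 1 it was 5.87, 5.64 and 5.83 in controls, 6.41, 6.05 and 6.16 after 1 dose, and 6.74, 6.69 and 6.69 after 4 doses. Experiment 2 gave values between 6.43 and 7.18 in controls, between 6.92 and 7.68 after 1 dose and between 7.76 and 8.19 after 4 doses. The values climbed by similar amounts at each comparison. The 1-dose mice differed from control by 0.49 (adjusted p = 0.00827) and the 4-dose mice from the 1-dose mice by 0.56 ± 0.11 SE (adjusted p = 0.00721).

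The other genes that rose were less stable. Cyp4f39, a fatty acid hydroxylase, rose by 0.73 ± 0.17 SE (adjusted p = 0.0475) with arrays apart in both experiments, and lost its call without any 1 of 20 arrays and, like Tifa, without both narrow-range arrays. Map3k7cl and Meox1, a homeobox gene of the somite, rose by 0.62 and 0.42 and lost it without 1 array, and Cd109 (0.40) likewise, each time replicate 3 of the 1-dose group of experiment 1. Myadm, Prepl, Lgals9, Exoc7, Pip4k2a, Atp13a5, Slc25a30, Ift122, Tifa and Dusp3 rose by between 0.30 and 0.59. Arhgap11a, a regulator of small GTPases in dividing cells, rose by 0.55 over 1 dose but differed from control by 0.24, not called (adjusted p = 0.363).

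The falls with repeated dosing were small in number, and all 9 lost their call without at least 1 array. Without both narrow-range 4-dose arrays the calls of Myom3, Gpt, Igfbp3, Rpia, Tnfrsf19, Klf10 and Wnt5a were lost, and that of Fst was kept. Myom3, a component of the sarcomere's M-band, fell by 0.65 (log2, SE 0.14) at an adjusted p = 0.0293. In experiment 2 its 4-dose arrays were 6.98, 7.83, 7.25, 7.75 and 7.88 and its 1-dose arrays 8.30, 7.78, 8.68, 7.79 and 8.46, so the groups overlapped there, while in experiment 1 they lay apart. The 2 lowest 4-dose arrays, replicates 1 and 3, were also the lowest for Tnnt1, the slow skeletal troponin T, at 7.02 and 7.26 against 8.41 to 8.66 on the others. The part of slow fibre content in the fall of Myom3 was not tested. Gpt, which encodes alanine aminotransferase, fell by 0.44 (log2, SE 0.10) at an adjusted p = 0.0422, with arrays apart in both experiments, and Igfbp3, which encodes an IGF-binding protein, fell by 0.34 (SE 0.08, adjusted p = 0.0446).

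Fst encodes follistatin, itself a natural trap of activins and myostatin. It was 5.34, 5.57 and 5.38 after 1 dose and 5.33, 5.18 and 5.25 after 4 doses in experiment 1, and its 1-dose arrays of experiment 2 lay between 7.34 and 7.63, with the 4-dose arrays at 7.33 or lower. Every 4-dose array lay below every 1-dose array of its experiment, by narrow gaps (fell by 0.27, SE 0.06, adjusted p = 0.0422). Against control, 1 dose stood at 0.22 (adjusted p = 0.0928) and 4 doses at -0.06 (adjusted p = 0.734), neither called, so Fst belongs to no response as defined. It was the only called gene among 37 ligands, receptors and antagonists of the ActRIIB system (over all genes, 0.321% were called). The median difference of that list was 0.01. The ligand gene Gdf11 differed by 0.28 and Fstl1 by 0.42 between the doses, not called. Rpia of the pentose phosphate pathway fell by 0.52 and Tnfrsf19, a receptor of the TNF family, by 0.35, and these too differed from control at neither dose.

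The 5 genes of the receded response had an early change that was gone or smaller after 4 doses, but the group was not stable. Adh1, an alcohol dehydrogenase, stood at -0.79 from control after 1 dose (adjusted p = 0.00688) and at -0.07 after 4 (difference between doses 0.73 ± 0.17 SE, adjusted p = 0.0422). In experiment 2 its controls lay between 9.72 and 10.18 and its 1-dose arrays between 8.77 and 9.23. Its 4-dose arrays there were 8.87, 9.07, 9.26, 9.96 and 10.12, of which 3 stayed near the 1-dose values and 2 had reached the controls. Asb2, a ubiquitin ligase adaptor of muscle, stood at -0.44 from control after 1 dose (adjusted p = 0.0159) and at 0.00 after 4 (0.44 ± 0.10 SE between doses, adjusted p = 0.0422). It was the only called gene among 20 muscle Asb and kelch adaptors (over all genes, 0.321% were called). The 4-dose arrays of Asb2 lay well above the 1-dose arrays in experiment 1, at 10.24 to 10.41 against 9.41 to 9.60. In experiment 2 they lay at 12.00 to 12.18, at the top of the 1-dose range of 11.72 to 12.01. There they were mostly below the controls of 12.14 to 12.55. The difference of 0.00 from control joins both experiments, so it does not show a return to the control level in each.

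Klf10, a transcription factor gene induced by TGF-beta, was raised by 0.55 after 1 dose (adjusted p = 0.02) and stood at 0.01 from control after 4. Its fall between the doses was 0.98 in experiment 1 and 0.28 in experiment 2 on the log2 scale, with replicate 3 of the 1-dose group of experiment 1 at 6.71 against 5.86 and 5.97 on the others. Its call between the doses was lost without any 1 of 20 arrays. Wnt5a, a secreted Wnt ligand, was raised by 0.33 after 1 dose (adjusted p = 0.0476) and was at -0.04 after 4. Ccny, a cyclin of the cell membrane, stood at -0.23 after 1 dose (adjusted p = 0.0408) and at 0.06 after 4. Ccny was the only gene of the 5 whose dose groups lay apart in both experiments. Even so, its 1-dose call was lost without any 1 of 11 arrays and its call between the doses without any 1 of 4. For Wnt5a the 1-dose call was lost without any 1 of 16 arrays and the call between the doses without any 1 of 12. The calls of Adh1 and Asb2 between the doses were lost without any 1 of 10 and any 1 of 11 arrays. The response held no gene without replicate 1 or replicate 3 of the 1-dose group of experiment 1 or replicate 1 or 2 of that of experiment 2, and in either experiment alone at most 1 gene was found. Without both narrow-range 4-dose arrays, Asb2, Klf10 and Wnt5a lost their calls between the doses. Chac1, whose product degrades glutathione, stood at -1.40 from control after 1 dose (adjusted p = 0.000422) and at -0.73 after 4 (adjusted p = 0.0822), but its difference between doses was not called (0.67, adjusted p = 0.331), with an interval from 0.19 to 1.14.

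**Figure D4:**
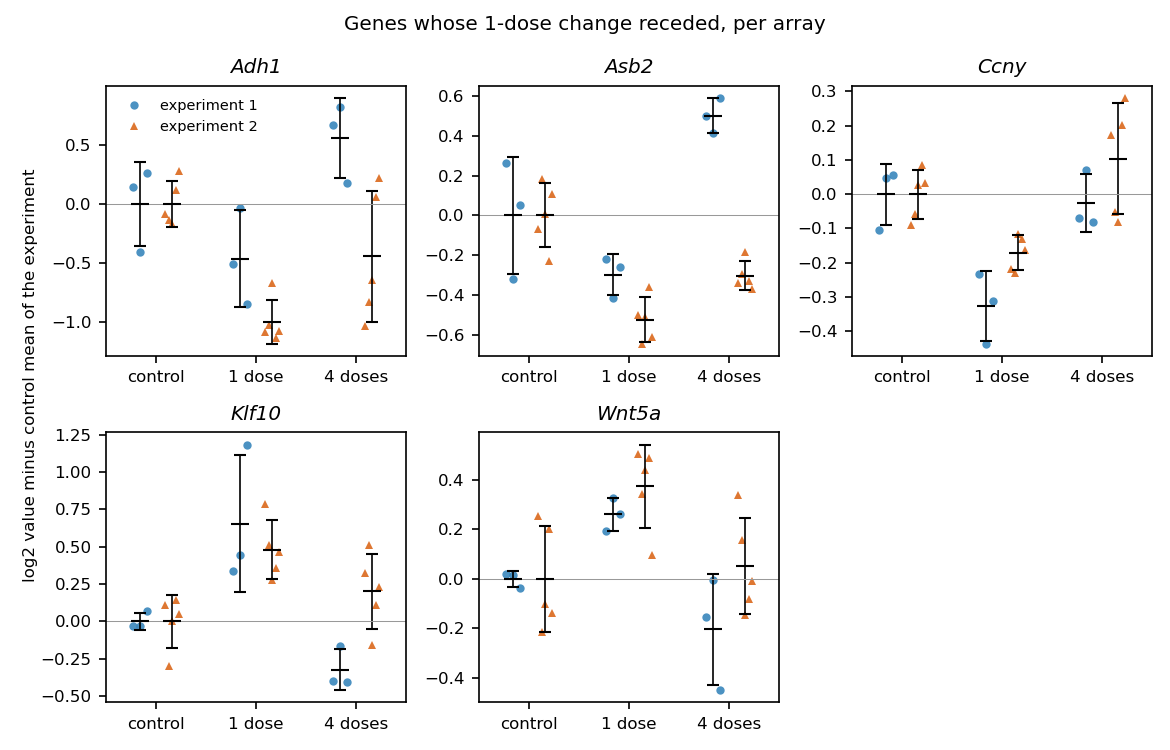
Log2 values of the 5 receded genes on each array, minus the control mean of the same experiment. Circles are experiment 1, triangles experiment 2, and black bars give the mean and SD. The 1-dose means lie below the control mean for Adh1, Asb2 and Ccny and above it for Klf10 and Wnt5a, and the 4-dose arrays of experiment 2 overlap the 1-dose arrays for all but Ccny.

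The kept response was the largest of the 3. For 93 of its 111 genes the 95% interval of the difference between the doses lay within 0.5 on either side of 0, and for 13 it excluded 0, although no call was made after adjustment. The change was smaller in size with 4 doses for 69 genes and larger for 42. The median difference from control was 0.44 after 1 dose and 0.44 after 4 doses for the 44 raised genes, and -0.59 and -0.59 for the 67 lowered genes. Because a kept gene must be called at both doses and not between them, these medians are set in part by the definition. The margin of 0.5 is about as large as these medians, so an interval within it does not show that a change kept its size. Within experiment 1 alone 4 genes were kept.

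Mss51, a muscle gene that follows myostatin signalling, had the largest change from control of all called genes at both doses. In experiment 1 it was 6.51, 6.18 and 6.67 in controls, 4.61, 4.28 and 4.15 after 1 dose and 5.07, 4.59 and 4.59 after 4 doses. In experiment 2 it was between 9.63 and 10.38 in controls, between 6.87 and 7.72 after 1 dose and between 6.96 and 7.70 after 4 doses. All treated arrays lay far below the controls and the dose groups overlapped in both experiments. It was at -2.50 from control after 1 dose (SE 0.20, adjusted p = 1.44e-10) and at -2.31 after 4 (SE 0.20, adjusted p = 7.88e-10), and the difference of 0.20 had an interval from -0.20 to 0.60.

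The ubiquitin ligase genes Fbxo32 and Trim63, whose products atrogin-1 and MuRF1 mark proteins for breakdown in wasting muscle, were lowered at both doses. Fbxo32 was at -1.02 after 1 dose (adjusted p = 3.02e-05) and -0.76 after 4 (adjusted p = 0.000926), with 0.26 between the doses (interval -0.03 to 0.55). In experiment 2 its controls lay between 10.98 and 11.45, its 1-dose arrays between 9.82 and 10.22 and its 4-dose arrays between 9.72 and 10.51. Trim63 was at -0.93 (adjusted p = 0.000609) and -0.87 (adjusted p = 0.000708), with 0.06 between the doses (interval -0.27 to 0.38). In experiment 1 the 4-dose arrays of Trim63 were 8.71, 8.14 and 8.04, the first of them among the controls of 8.42 to 8.97. None of 32 atrophy, autophagy and FoxO genes was called between the doses (median 0.06), where 0.321% of all genes were. Of the 32, 3 were lower than control after 1 dose (over all genes, 0.572% were) and 4 after 4 doses (1.23%). Klhl38 and Asb15, adaptors of cullin ubiquitin ligases in muscle, were at -1.18 and -1.15 after 1 dose and at -0.99 and -0.90 after 4.

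Some kept genes leaned towards control or away from it without a call. Tnfaip2, a gene induced by TNF, stood at 1.52 after 1 dose (adjusted p = 2.65e-06) and 1.03 after 4 (adjusted p = 0.000523), with -0.49 between them (interval -0.86 to -0.12, adjusted p = 0.377). Its 4-dose arrays lay below all 1-dose arrays in experiment 1, at 7.45 to 7.68 against 7.96 to 8.23, and overlapped them in experiment 2. Tbc1d1, a regulator of glucose transporter traffic, stood at -1.22 and -0.66, with 0.56 between the doses (interval 0.24 to 0.87, adjusted p = 0.131). Dglucy, Rftn1, Tspan9 and Mamstr, a cofactor of MEF2, likewise had smaller changes after 4 doses with intervals that excluded 0. Inmt, a methyltransferase, leaned the other way, at -1.44 and -1.91, but its difference was 0.17 in experiment 1 and -0.85 in experiment 2, where the 4-dose arrays (6.73 to 7.71) lay below the 1-dose arrays (7.76 to 8.68). Bdh1, of ketone body use, was at -0.71 and -1.14 (interval of the difference -0.72 to -0.14).

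Nos1, the muscle nitric oxide synthase, was at -1.01 and -0.74, and Timp4, an inhibitor of matrix proteases, at -1.20 and -0.85. Fgf6, a growth factor of skeletal muscle, was at 0.67 and 0.59. Lmod2 and Odf3l2 were at -1.01 and -1.14 and at -1.34 and -1.34, with wide intervals between the doses (-0.63 to 0.36 and -0.64 to 0.65). The 1-dose call of Lmod2 was lost without any 1 of 7 arrays and that of Odf3l2 without any 1 of 5.

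**Figure D5:**
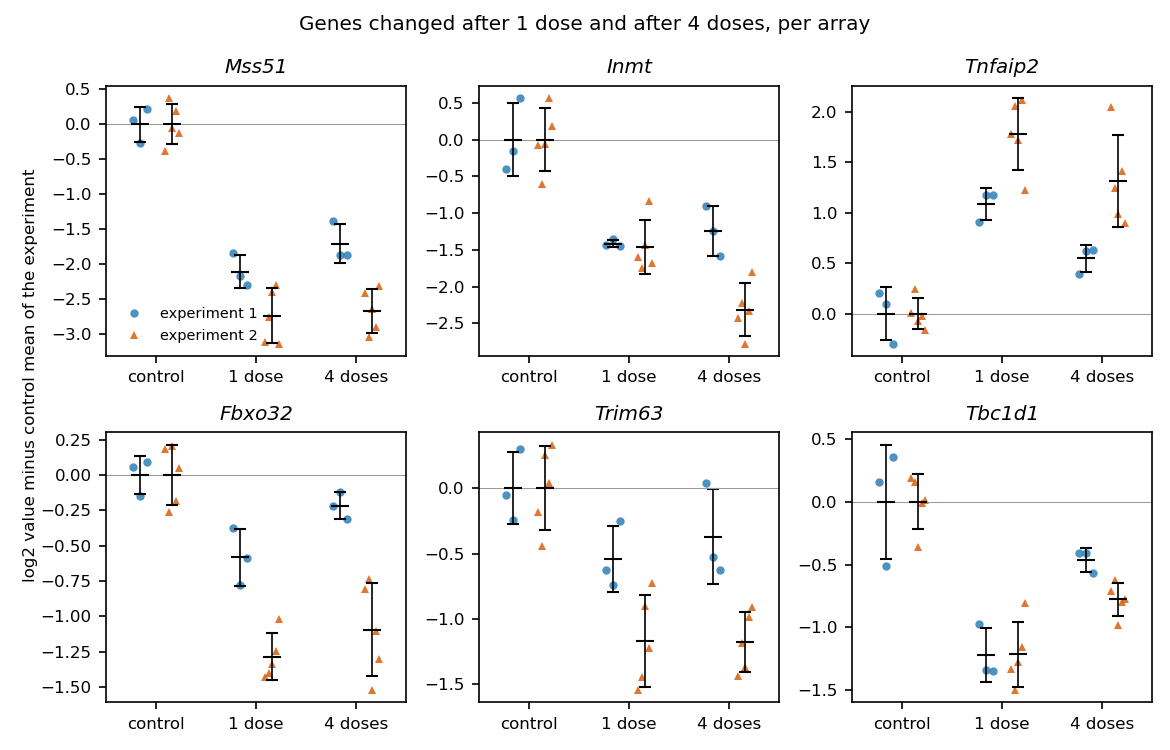
Log2 values of 6 kept genes on each array, minus the control mean of the same experiment. Circles are experiment 1, triangles experiment 2, and black bars give the mean and SD. For Mss51 all treated arrays lie far below the controls, and in experiment 2 the dose groups overlap for 5 of the 6 genes and lie apart for Inmt.

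Slow fibre contractile genes and adipocyte markers had negative medians between the doses without a call. All 14 slow fibre genes had a difference at or below 0 between 4 doses and 1 dose, with a median of -0.57. None of the 14 was called (over all genes, 0.321% were). Against control their median was -0.75 after 1 dose, with 0 called, and -1.41 after 4 doses, with 9 lower (over all genes, 1.23% were). That count was 1 without replicate 3 of the 4-dose group of experiment 2 and 0 without both narrow-range arrays. The slow fibre tropomyosin gene Tpm3 differed by -0.67 between the doses in the row used. Its other probe rows gave 0.13, -0.03 and -0.03, so its direction depended on the row. Tnnt1 was at -0.74 after 1 dose (adjusted p = 0.382) and -1.50 after 4 (adjusted p = 0.00753), and Myh7, the slow myosin heavy chain, at -1.11 and -2.00. The spread within a group was wide, as Myh7 ran from 7.06 to 10.76 after 1 dose in experiment 2, so the interval of its difference reached from -1.91 to 0.13. Of 16 adipocyte markers 15 were at or below 0 between the doses (median -0.36), none called (over all genes, 0.321% were). Their median from control was -0.03 after 1 dose, with 1 lower (over all genes, 0.572% were), and -0.55 after 4 doses, with 3 lower (1.23%). Dgat2 differed by -0.71 and Lpl by -0.41. The mean level of the adipocyte list within 1-dose arrays of experiment 1 ranged from 6.50 to 8.16 and that of its 4-dose arrays from 6.41 to 6.98.

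In the IGF, AKT and mTOR list of 28 genes, Igf2 rose and Igfbp3 fell, with a median of 0.00. Of the remaining lists, those for oxidative phosphorylation (66 genes), tricarboxylic acid cycle and pyruvate entry (20), glycolysis and glycogen (24), fatty acid uptake and oxidation (25), fast fibre contractile genes (16), cytoplasmic ribosomal proteins (40), ribosome biogenesis and translation (25), interferon response (18), smooth muscle and pericyte markers (14), Schwann cell markers (11), tendon markers (14), erythroid markers (4), denervation and the neuromuscular junction (21), ATF4 and serine synthesis (20), polyamines (9), the circadian clock (16), immediate early genes (22), and the SMAD factors and BMP or TGF-beta targets (26) had no gene called between the doses. Their medians lay between -0.16 and 0.15. Over all genes, 0.321% were called between the doses. In data simulated at each gene's own spread, 86% of 100 genes changed by 0.5 were called between the doses. That simulation drew genes independently and gave both experiments the same change. It therefore does not show that lists without a call were unchanged.

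The difference between 4 doses and 1 dose was itself compared between the experiments. It differed for 11 genes (0.0552%), all higher in experiment 2 than in experiment 1 (limma, adjusted p under 0.05), and none of the 11 was called in the joint comparison. Hmgn5, a nucleosome-binding protein gene, differed by -2.76 in experiment 1 and 0.76 in experiment 2, Meg3, an imprinted noncoding RNA, by -1.55 and 0.52, and the splicing factor gene Srsf5 by -1.50 and 0.31. Egfl7, an endothelial gene, lay apart in opposite directions, with 4-dose arrays at 6.35, 6.66 and 6.35 against 6.86 to 7.16 in experiment 1, and at 7.90 to 8.40 against 7.61 to 7.78 in experiment 2. The other 7 (Cacfd1, Hnrnpm, Hypk, Leng8, Lsmem2, Pabpn1 and Snrnp70) had differences from -1.32 to -0.63 in experiment 1 but from 0.10 to 0.45 in the second. The count was 0 without both narrow-range 4-dose arrays, and also without any 1 of 7 arrays, so it rests on single arrays. In simulated data this test called 81% of 100 genes that differed by 1 between experiments and 19% of those that differed by 0.5. Within experiment 1 alone 86 genes differed between the doses, of which 19 rose, but without its narrow-range 4-dose array 10 did. In experiment 2 alone 47 differed, 44 of them higher. The interquartile range of the arrays differed little between the dose groups (4 doses minus 1 dose -0.00852, exact permutation test within experiments, two-sided, p = 0.912).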

How the data were processed

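Whole-transcript microarrays measured RNA, extracted with TRIzol, of quadriceps from control, treated and mstn-null mice. The deposited values are log2 expression values that the authors made with RMA, per the submitters' processing notes, where limma 3.4.4 and R 2.11.1 are also listed. Base 2 was read from how far the values extend. Joint or separate normalization of the experiments is not stated in what was used here. Of 35556 probe rows, 21789 carry 1 gene symbol in the platform annotation, 1621 several and 12146 none, and 21698 of the rows with 1 symbol matched a RefSeq gene. Where a gene had several rows (999 genes), its row of highest mean stood for it, leaving 19938 genes.

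Each contrast came from a single limma 3.58.1 fit (R 4.3.3) to the 35 arrays, whose terms were class and experiment, and a fit of the 8 group means gave values within experiments and the difference between them. Adjusted p-values are limma's, by the method of Benjamini and Hochberg over all genes, and calls use a threshold of 0.05. The p-values set a mean difference against the spread between mice, which limma moderates over all genes. In the fit of class and experiment, that spread also holds any difference of the class effects between the experiments. It is estimated partly from the mstn-null arrays. With arrays alone, their number limits the precision, and signal over background is not known here.

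The comparison, its gene lists and the genes named were chosen with earlier results of these data known. Named genes were Mstn, the 10 largest rises and falls with the same sign in both experiments, up to 8 genes by 1-dose change in the receded and kept responses, up to 4 members of each list by smallest p between the doses, and 6 genes known to respond (Igf2, Mss51, Tnfaip2, Fbxo32, Trim63 and Chac1). The other called genes and the members of a count were named after their values were seen. Clone-style symbols and olfactory receptor genes, 1 of each among the called genes (the latter 1 of the 9 falls), were counted and not named. Normalization, array range, dim genes, row choice, variance prior, samples, replicate number and single arrays were varied. For 4 doses against 1 dose, simulated data held independent noise per gene and the same change in both experiments. There, 86% of 100 genes changed by 0.5 and 98% of 100 changed by 1 were recovered, with 6 false calls.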

Additional observations from a re-analysis of the deposited data

Results flagged for a closer look

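The difference between 4 doses and 1 dose was higher in experiment 2 than in experiment 1, by a test of that difference (limma, adjusted p under 0.05), for 11 genes. The gap was 3.52 for Hmgn5, 2.07 for Meg3, 1.81 for Srsf5, 1.73 for Hnrnpm, 1.53 for Hypk, 1.49 for Leng8, 1.35 for Pabpn1, 1.16 for Snrnp70, 0.97 for Egfl7, 0.96 for Lsmem2 and 0.90 for Cacfd1. None of these calls stood without both narrow-range 4-dose arrays.

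In 19 of 387 groups of named genes (4.91%) a single array was separated from the others by a large share of the group's whole range, which can be small in log2 units. Chance alone marks about 5%. All are in experiment 2, whose groups hold 5 arrays. Among controls, replicate 3 was low for H2-Ab1 (6.78, others 7.51 to 7.61), H2-Eb1 (6.97, others 7.32 to 7.43) and Mfap5 (8.38, others 8.69 to 8.80). Control replicate 1 was high for Cd109 (5.85, others 5.51 to 5.59) and Kif11 (4.83, others 4.63 to 4.68), and control replicate 5 was low for Ckap2 (4.65, others 4.86 to 4.93).

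After 1 dose, replicate 4 was low for Ccnd1 (6.37, others 6.76 to 6.91) and Cacfd1 (7.54, others 7.56 to 7.57) and high for Akt2 (11.66, others 11.35 to 11.41). Replicate 3 was high for Adh1 (9.23, others 8.77 to 8.88), replicate 2 for Map3k7cl (7.25, others 6.82 to 6.93), and replicate 5 was low for Cd109 (5.54, others 5.68 to 5.72).

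After 4 doses, replicate 1 was high for Chac1 (8.51, others 7.62 to 7.77), Dglucy (7.53, others 7.09 to 7.18) and Ctnna3 (8.47, others 8.12 to 8.18). Replicate 3 was high for Dlk1 (7.98, others 7.34 to 7.51) and low for Ift122 (6.37, others 6.60 to 6.66). Replicate 4 was low for Fndc3c1 (4.91, others 5.18 to 5.26), and replicate 5 was low for Lgals1 (11.40, others 11.64 to 11.70).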

How the results depend on the processing

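The 64 genes that differed between 4 doses and 1 dose became 40 with arrays centred on their medians (90% higher, against 85.9%), 135 with the interquartile range as a covariate (77.8% higher), 39 without dim genes, which tests fewer genes, 36 with all rows of the table, and 10 in experiment 1 alone without its narrow-range 4-dose array. The other alternatives gave 47 (experiment 2 alone) to 88 (without both narrow-range 4-dose arrays). Similar counts did not mean the same genes. Of the 64, 39 were among the 82 called from the 16 dose arrays alone. In experiment 1 alone 10 were among its 86, and in experiment 2 alone 30 were among its 47. With the range as covariate all 64 were kept. Leaving out single arrays gave 27 to 81. Built up, 53 genes, became 120 without mstn-null arrays, 32 with centred arrays, 96 with the range as covariate, 29 without dim genes, 33 in experiment 1 alone, 3 there without the narrow-range array and 33 with all rows, and 26 to 71 without single arrays. Receded, 5 genes, became 17, 2 and 10 under the first 3 of these, 8 with rows of a gene averaged, 1 in experiment 1 alone, and 0 in experiment 2 alone, in either experiment alone without its narrow-range array and with all rows, and 0 to 7 without single arrays. Kept, 111 genes, became 206 without mstn-null arrays, 4 in experiment 1 alone and 0 there without the narrow-range array, and 80 (without control replicate 3 of experiment 2) to 162 (without control replicate 2 of experiment 1) without single arrays. The difference between experiments, 11 genes, became 0 without both narrow-range arrays and 0 to 25 without single arrays. Except for the smaller number of genes or samples, the cause was not tested. The difference in array range of -0.00852 became 0.0106 from the 5th to the 95th percentile and -0.038 to 0.0305 without single arrays. None of the called differences of named genes changed direction, and Igf2 and Cdkn1c kept their calls between the doses under all alternatives. All-gene medians stayed between -0.026 and 0.015. The alternatives on narrow-range arrays and on all rows were chosen after seeing the data.

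With the replicate number as a block, 70 genes differed between the doses, 43 of them among the 64, with 53 built up, 6 receded and 146 kept. Same-numbered arrays of the dose groups correlated between -0.60 and 0.10 over 8 pairs, and none of the 8 matched its own number best, so the arrays share only a number.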
